A study of Mus musculus with 24 samples.

Results

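The replication-dependent histone genes encode the linker histone H1 and the core histones H2A, H2B, H3 and H4, and lie in the Hist1 to Hist4 clusters of the mouse genome. Members were taken from the deposited gene counts as every protein-coding gene on chromosomes 1 to 19 whose symbol starts with Hist1h, Hist2h, Hist3h or Hist4h. This rule found 68 of the 45594 genes, of which 55 belong to Hist1 on chromosome 13, 10 to Hist2 on chromosome 3, 2 to Hist3 on chromosome 11 and 1 to Hist4 on chromosome 6. Another 3 genes with such symbols are not protein-coding and were left out. By type there were 6 genes for H1, 19 for H2A, 18 for H2B, 12 for H3 and 13 for H4.

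The study sequenced polyadenylated RNA of whole retinas from C57/Bl6N mice, without treatment or gene change in the labels, at embryonic days E11, E12, E14 and E16, in the first postnatal week at P0, P2, P4 and P6, and later at P10, P14, P21 and P28. Each stage has 2 libraries, 24 in all. The labels do not say whether these came from separate animals, so p-values measure only the spread between these libraries. RNA input was lower at E11 and E12 than at the other stages. Library totals ran from 24567685 to 35899114 counts. Levels below are in CPM, counts scaled to a common library total, after TMM, a method that sets libraries to a common level for most genes, and errors are SD over 2 libraries unless said otherwise.

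The markers of retina (8 genes such as Rax and Crx) summed to between 618.3 and 3902 CPM in the 24 libraries. Markers of dividing cells (8 genes, among them Mki67 and Top2a) summed to 2428 to 3400 CPM in the libraries of E11 to P2, to 227 and 289 at P6, and to 40.2 and 42.8 at P28. Markers of other tissue were high in the early libraries. Lens markers (8 genes) summed to 3224 and 23.05 CPM at E11, 227.8 and 3086 at E12, 63.34 and 2308 at E14, and 2.2 and 2.6 at E16. Red cell markers (8 genes) summed to 2949 and 7305 CPM at E11, 999.1 and 580.2 at E12, 76.15 and 135.4 at E14, and 8.03 and 14.16 at E16. Later, lens markers reached 95.28 CPM in replicate 2 of P14, and pigment epithelium markers (7 genes) 164.4 and 213.1 at P10. In whole tissue, fewer cells of a type and less RNA per cell cannot be told apart.

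Most replication-dependent histone mRNAs of dividing cells are not polyadenylated. They end just after a conserved stem-loop in the 3′ untranslated region, which is bound by the stem-loop binding protein SLBP, and are made in the phase of DNA synthesis and destroyed when it ends. Some of these genes can instead end at a polyadenylation signal further downstream, usually AATAAA or ATTAAA, and such polyadenylated forms are known from differentiated cells. Libraries of polyadenylated RNA are made to read only these forms, so the values below say little of the stem-loop form, which is the bulk of histone mRNA in dividing cells.

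The sequence at which the forms divide can be read in the annotated transcripts (GENCODE M21 on GRCm38, gene strand, cut to the extent of the deposited models). The stem-loop windows below are shown for 4 members with long ends and for 2 whose deposited models stop just after the loop. Capitals mark the stem-loop, searched as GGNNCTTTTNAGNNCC on the transcript strand.
Hist1h1c: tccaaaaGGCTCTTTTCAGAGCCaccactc
Hist3h2a: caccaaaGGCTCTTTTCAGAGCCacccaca
Hist1h4i: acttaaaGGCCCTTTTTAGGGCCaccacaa
Hist4h4: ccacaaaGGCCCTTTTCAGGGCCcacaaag
Hist1h1e: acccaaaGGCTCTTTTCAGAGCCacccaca
Hist1h2bg: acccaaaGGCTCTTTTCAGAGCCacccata
The deposited model of Hist1h1e goes on for 27 bases after the stem-loop and that of Hist1h2bg for 26, though both have longer GENCODE M21 transcripts. That of Hist1h4i goes on for 330 bases, of Hist1h1c for 840, of Hist3h2a for 1643 and of Hist4h4 for 2445.

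The second set of windows shows the polyadenylation signal near the end of widely detected members, with the hexamer in capitals.
Hist1h1c: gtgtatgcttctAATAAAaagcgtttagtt
Hist3h2a: aggtatatgcccAATAAAataagagtacgt
Hist3h2ba: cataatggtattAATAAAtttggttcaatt
Hist2h2be: gttattattattAATAAAgttaccgattag
Hist1h4i: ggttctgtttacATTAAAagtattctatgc
Hist2h4: tcgtatacataaAATAAAatcttaaaaaca
Hist1h1e and Hist1h2bg have no such hexamer in the last 50 bases of their deposited models. The stem-loop letters were found in 40 of 66 member transcripts with a matched sequence, against 0.1% of all 111801 matched transcripts. A hexamer in the last 50 bases was found in 14 of the 66, against 35.1% of all. In Hist2h2be, an H2B gene, the search found no stem-loop, which says only that these letters are not in its model.

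Few members were detected at every age. Taking detection at a stage as at least 10 counts in both libraries, 23 of the 68 were detected at 1 stage or more, a share below that of all genes of the table (46.48%), and 8 at all 12 stages (31.82% of all genes). These 8 were the H1 gene Hist1h1c, the H2A gene Hist3h2a, the H2B genes Hist2h2be, Hist3h2ba, Hist1h2bc and Hist1h2be, and the H4 genes Hist1h4i and Hist4h4; no H3 gene was among them. Most counts of Hist1h2be lie on a transcript annotated without a coding region. Its detection, and its part in the sums of H2B genes below, are thus not of coding mRNA alone. The number detected was 9 at E11, 12 at E16 and P6, and 15 at P21 and P28, with the highest number, 16, at P2. At the other end, 33 members stayed under 10 counts in every library and Hist2h3b, an H3 gene, had no count in any. A filter on low counts kept 28 members for tests. The 40 others reached at most 19 counts in a library (Hist1h3d) and together summed to 0.296 to 2.64 CPM and were left out of the tests by that filter.

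Detection went with the length of the deposited transcript models. All 10 members with a model of at least 1000 bases were kept for tests, 7 of them were detected at 7 stages or more and 5 at all 12. Of the 58 with shorter models 18 were kept, 4 were detected at 7 stages or more and 3 at all 12 (Hist1h2bc, Hist3h2ba and Hist1h4i). A longer transcript yields more reads, and the order per kilobase was another one. Per kilobase of model, the mean over all libraries was 21.7 CPM for Hist3h2ba (614 bases), 18.4 for Hist1h1c (1560 bases), 17.7 for Hist1h2bc (736 bases) and 15.1 for Hist3h2a (2146 bases). Among the 63 members whose leading model had a matched sequence, 13 held a hexamer near the end, and 11 of these were kept and 8 detected at 7 stages or more. Of the 50 without one, 15 were kept and 2 were detected at 7 stages or more (Hist2h2ac and Hist2h3c2). In 18 member transcripts the GENCODE M21 model is longer than the deposited one, among them Hist1h1e (1930 against 748 bases) and Hist1h1d (7425 against 744), and the part outside a deposited model is not in the values used here.

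**Figure D1:**
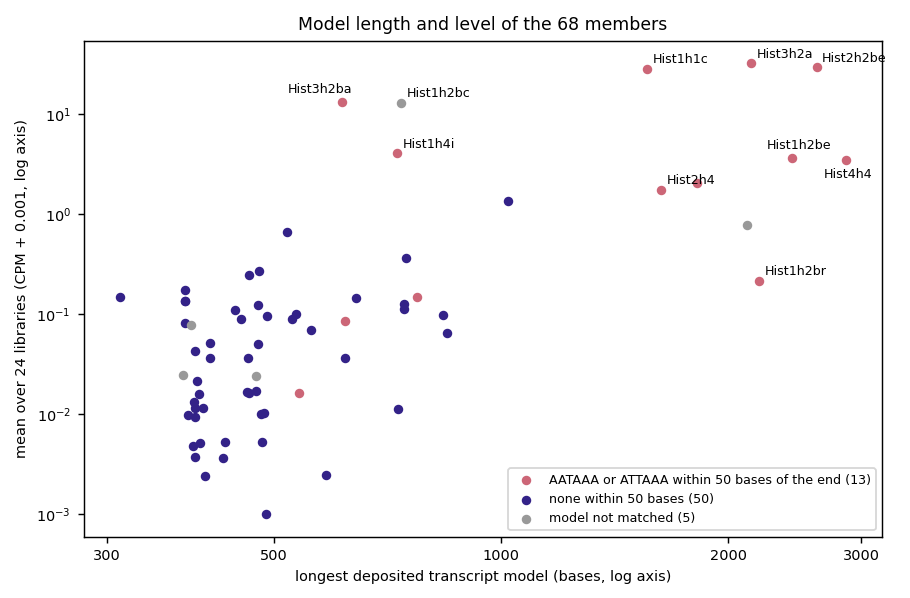
Length of the longest deposited transcript model (bases, log axis) against the mean level over 24 libraries (CPM plus 0.001, log axis) for the 68 members; colour gives whether AATAAA or ATTAAA lies in the last 50 bases. Members above 1 CPM are at the upper right or carry a name at the left, such as Hist3h2ba, Hist1h4i and Hist1h2bc, and most members with models under 1000 bases lie below 0.5 CPM.

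A handful of genes carried the summed level. The 68 members together gave 77 ± 15 CPM at E11, 102 ± 3.4 at E16, 160 ± 6.4 at P6 and 220 ± 16 at P28. The 5 members with the highest means (Hist3h2a, Hist2h2be, Hist1h1c, Hist3h2ba and Hist1h2bc) made up 74.9% of the sum at E11, 88.7% at P6 and 79.4% at P28. Their order differed with age: Hist2h2be gave 39.2% of the sum at E11 and 8.14% at P28, while Hist1h2bc gave 7.37% at E11, 3.34% at P6 and 22.4% at P28. By type, H2B genes summed to 50.6 ± 13 CPM at E11 and 98.9 ± 16 at P28, and H2A genes to 7.26 ± 0.87 and 58.1 ± 1.8, of which Hist3h2a was nearly all. H4 genes summed to 11.6 ± 0.21 CPM at E11, to 4.34 ± 0.38 at P6 and to 17.3 ± 1.1 at P28.

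**Figure D2:**
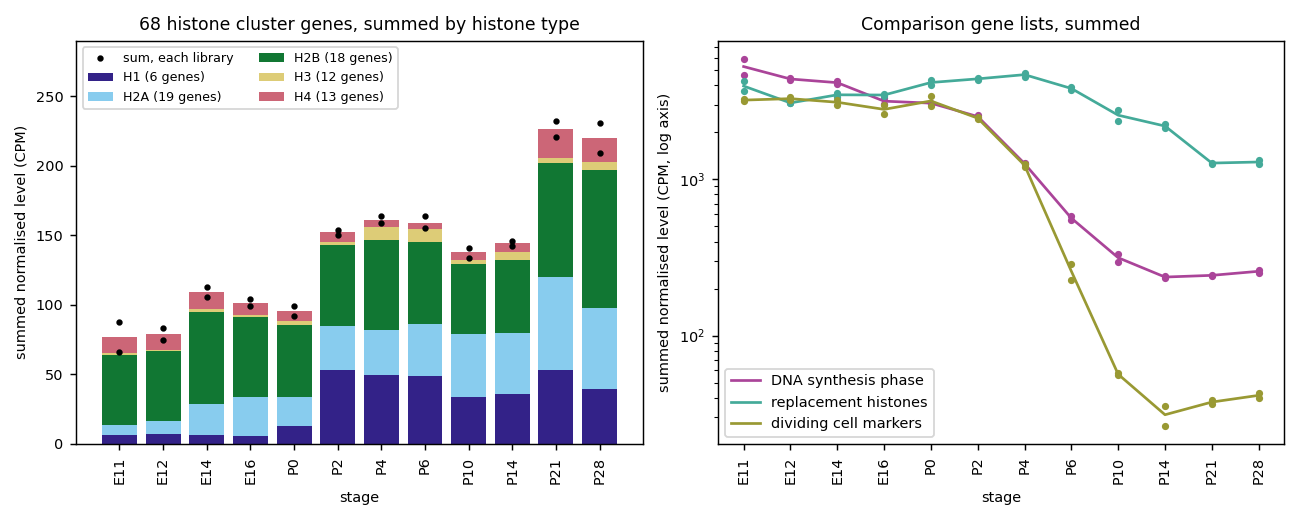
Left, summed level (CPM) of the 68 members at each stage, stacked by histone type as means of 2 libraries, with dots for the sum in each library. Right, summed level (CPM, log axis) of 3 comparison lists, dots being libraries and lines means; the member sum is highest at P21 and P28, where the DNA synthesis list and the dividing cell markers are near their lowest.

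After P6, when markers of dividing cells had dropped, 10 of the 28 tested members rose by P28 and 3 fell. A gene counted as higher or lower if it moved 2-fold or more with a Benjamini-Hochberg adjusted p below 0.05 in edgeR's quasi-likelihood test. That held for 14.23% of all genes tested in the higher direction and for 10.49% in the lower. The members' median log2 change was 1.31, against 0.04 for all genes. All 13 had P28 libraries that lay wholly above or wholly below those of P6. No overlap was also seen for all 5 members called from E11 to E16 and all 7 from E16 to P6. The share without overlap among all called genes was not computed, so these counts add no support to the calls. The 10 that rose comprise 3 H2B genes, 4 H4 genes, 2 H1 genes and 1 H3 gene; 7 lie in Hist1, 2 in Hist2, and the single Hist4 gene is among them.

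The H2B gene Hist1h2bc (chr13:23684199-23692488, + strand) was the most abundant of those that rose. Its libraries read 5.37 and 5.27 CPM at P6, 8.7 and 9.7 at P10, 19.4 and 21.8 at P14, 38.8 and 36.4 at P21, and 40.8 and 57.8 at P28. Every library from P10 on lay above both of P6, and from E11 to P4 the gene had stayed between 2.16 and 6.4 CPM. The log2 change from P6 to P28 was 3.21 (SE 0.19, adjusted p = 5.76e-10), a 9.26-fold rise. Per kilobase of its model it went from 7.23 to 67 CPM, the highest P28 value per kilobase among the tested members. The deposited model of Hist1h2bc (736 bases) could not be matched to its GENCODE M21 transcript (1156 bases). Its stem-loop, its hexamer and the sequence it shares with other genes were therefore not read.

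Hist1h2be, another H2B gene (chr13:23583742-23621124, − strand), followed a later course. It read 1.43 and 1.17 CPM at P6, 2.74 and 1.45 at P14, 12.9 and 11.4 at P21, and 14.15 and 18.4 at P28. P14 lay only a little above P6, and the largest step lay between P14 and P21. The log2 change from P6 to P28 was 3.64 (SE 0.35, adjusted p = 1.97e-07). Most of its counts belong to 1 of its 3 transcripts, Hist1h2be-003, annotated as a processed transcript without a coding region, which held 80.1% and 84.2% of the gene's transcript counts at P21 and 81.8% and 79.4% at P28. The 2 coding transcripts together had 86.2 and 128.3 counts at P28, against 5.3 and 7.5 at P6.

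The third H2B gene, Hist1h2bg, was near the limit of the counts, with 0.159 and 0.154 CPM at P6 and 0.718 and 0.87 at P28. Its log2 change was 2.31 (SE 0.93, adjusted p = 0.0489). The call was lost when any 1 of the 4 libraries was left out (adjusted p from 0.0974 to 0.174) and with DESeq2 (adjusted p = 0.0912). Only 28% of its 31-base stretches are its own, and Hist1h2bc, which rose over the same window, is the gene that shares most with it; the part of Hist1h2bc in its counts was not tested.

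Among the H4 genes, Hist4h4 (chr6:136801553-136804415, − strand) read 2.77 and 1.85 CPM at P6, 4.15 and 2.9 at P14, 7.51 and 7.82 at P21, and 9.33 and 9.74 at P28. Up to P10 all its libraries lay between 1.34 and 2.89 CPM, so that every P21 and P28 library lay above every earlier one. The log2 change from P6 to P28 was 2.05 (SE 0.23, adjusted p = 1.43e-06). Hist2h4 had a like change, 2.05 (SE 0.44, adjusted p = 0.0009), from 0.922 and 1.2 CPM at P6 to 4.39 and 4.44 at P28. Its P21 libraries were higher still and far apart, at 7.05 and 12.17 CPM.

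Hist1h4i took a different course from Hist4h4 and Hist2h4. It was highest in the embryo, at 8.61 and 9.81 CPM at E11, went down to 0.89 and 0.955 at P6 and 0.738 and 0.592 at P10, stood at 0.901 and 0.968 at P14, and read 2.92 and 2.22 at P21 and 1.38 and 2.52 at P28. The log2 change from P6 to P28 was 1.08 (SE 0.28, adjusted p = 0.00414), but without replicate 2 of P28 it was 0.57 (adjusted p = 0.133). Hist1h4k had no count in either P6 library and 35 and 33 counts at P28, or 1.005 and 0.957 CPM. Against a floor of 3 counts over both P6 libraries this was at least 20.9-fold higher (adjusted p = 0.00203). Of the 31-base stretches of the Hist1h4k model only 13.8% occur in no other gene, so its counts could belong in part to other H4 genes.

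Hist2h3c2 was the H3 gene that rose, from 1.14 and 1.29 CPM at P6 to 3.9 and 6.09 at P28. Its log2 change was 2.03 (SE 0.41, adjusted p = 0.00052). Only 35.8% of its 31-base stretches are its own, and 64.2% are shared with Gm20634, a processed transcript described below. Gm20634 read 0.858 and 1.66 CPM at P6 and 26 and 40 at P28. Its part in the counts of Hist2h3c2, here and in the other comparisons, was not tested. Both linker histone genes that rose had few counts. Hist1h1e read 0.0318 and 0.0924 CPM at P6 and 0.804 and 1.57 at P28, a log2 change of 4.16 (SE 0.67, adjusted p = 7.12e-05). Hist1h1a read 0.0318 and 0.0308 CPM at P6, which is 1 count in each library, and 0.402 and 0.29 at P28 (log2 change 3.31, SE 0.80, adjusted p = 0.00248).

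**Figure D3:**
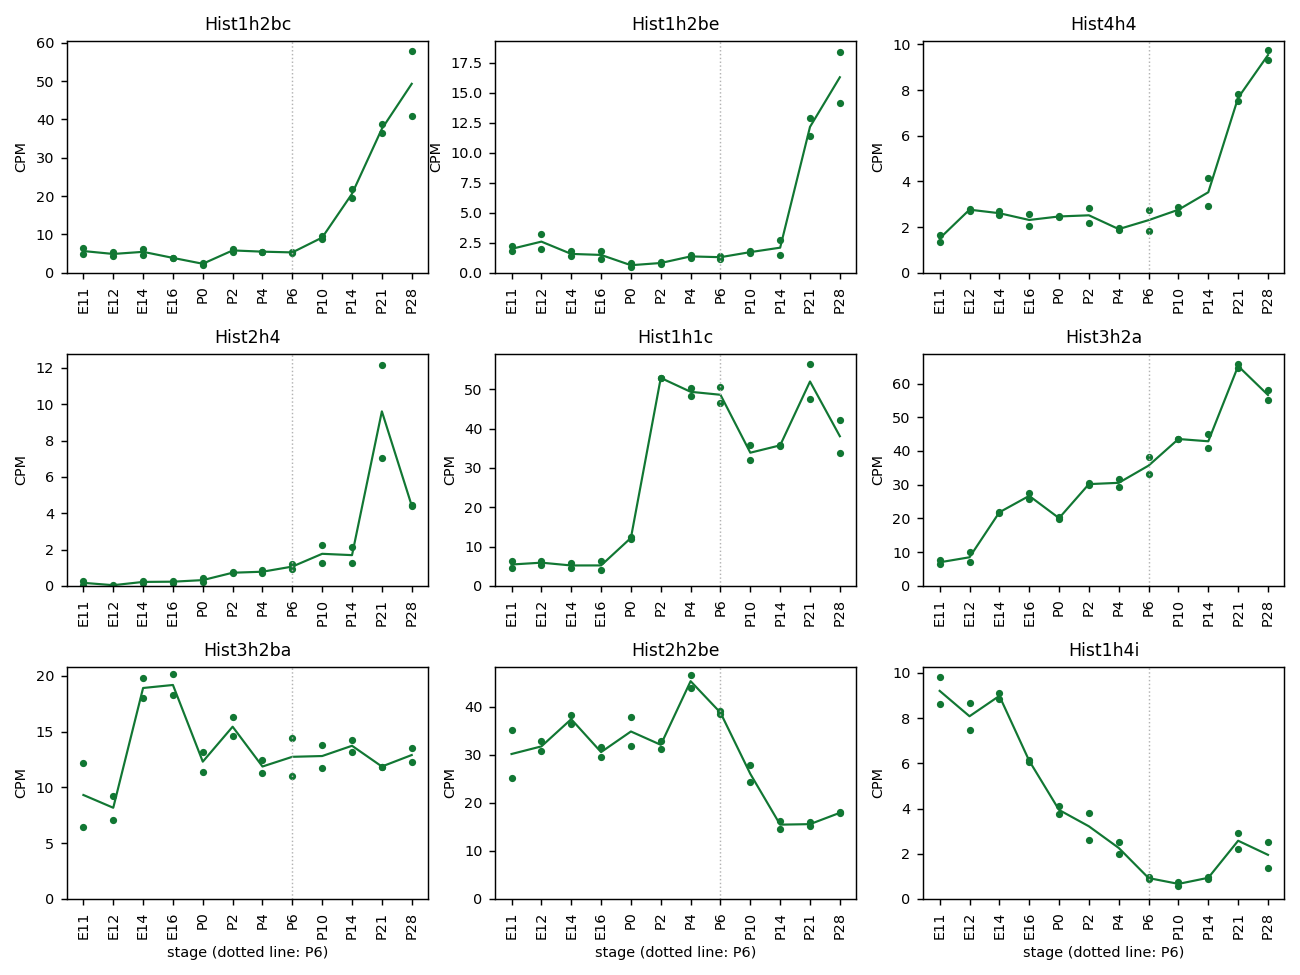
Level (CPM, linear axes from 0, each panel with its own scale) of 9 members at the 12 stages; dots are the 2 libraries of a stage, lines join their means, and the dotted line marks P6. Hist1h2bc climbs from P10, Hist1h2be and Hist4h4 stand apart at P21 and P28, Hist1h1c steps up between P0 and P2, and Hist2h2be drops after P6.

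The 3 members that fell after P6 all lie in Hist2. Hist2h2be (chr3:96221119-96223738, + strand), the H2B gene with the highest level in the embryo, read 39.1 and 38.5 CPM at P6, 24.3 and 27.8 at P10, 16.3 and 14.7 at P14, and 18 and 17.8 at P28. Its log2 change was -1.11 (SE 0.13, adjusted p = 2.91e-06), so that the H2B genes Hist2h2be and Hist1h2bc changed places in level between P6 and P28. The H2A gene Hist2h2ac read 1.49 and 1.45 CPM at P6 and 0.402 and 0.58 at P28 (log2 change -1.58, SE 0.52, adjusted p = 0.0196), a call lost without either replicate of P6 and without replicate 1 of P28 (adjusted p from 0.0599 to 0.136). Hist2h3c1, an H3 gene, read 8.99 and 7.3 CPM at P6 and 0 and 0.667 at P28 (log2 change -4.60, SE 1.56, adjusted p = 0.0229), a call that was lost without replicate 1 of P6 (adjusted p = 0.0562), without replicate 1 of P28 (adjusted p = 0.144) and with DESeq2 (adjusted p = 0.0971). With either replicate 1 left out, Hist2h2be alone remained among the members that fell.

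**Figure D4:**
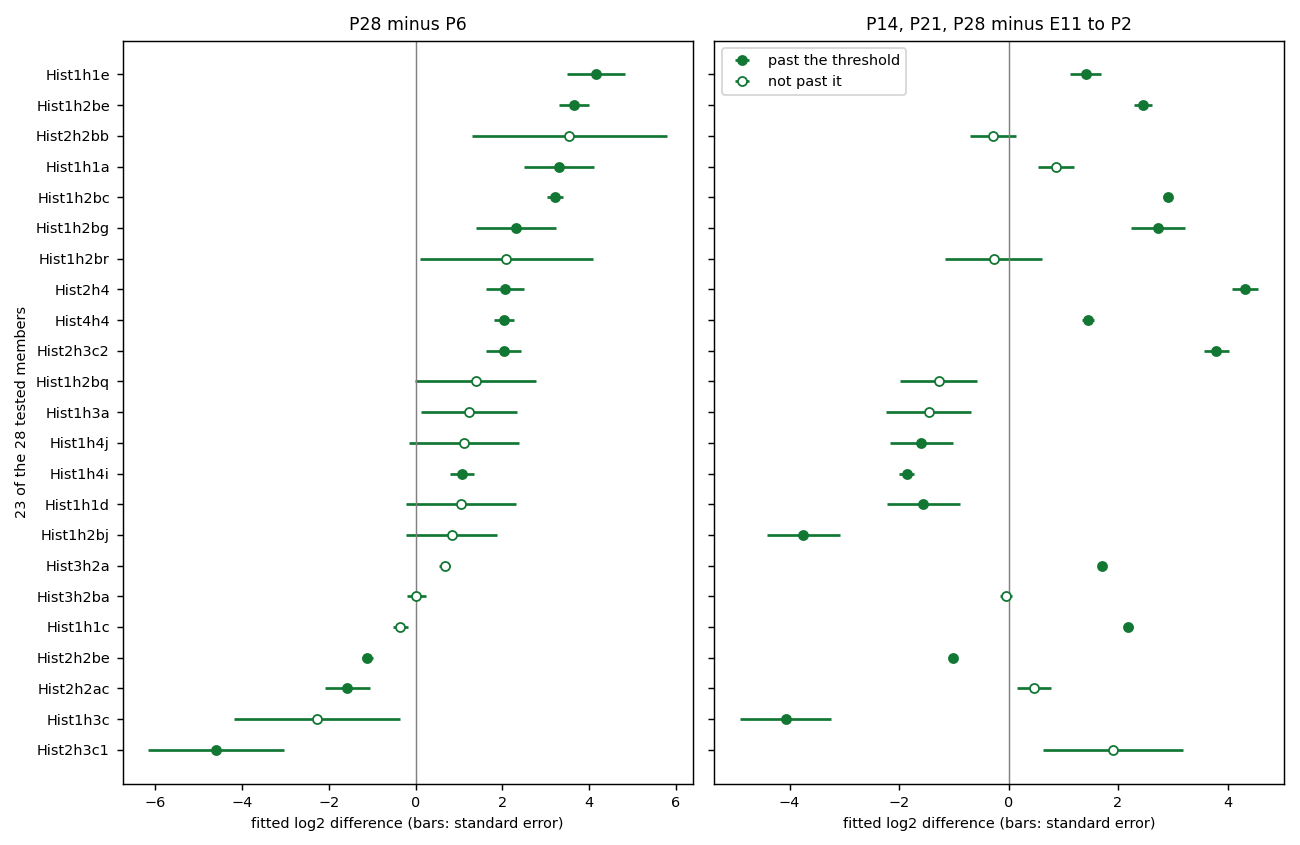
Fitted log2 differences with their standard errors for 23 of the 28 tested members, from P6 to P28 at the left and between the mature and the dividing stages at the right; filled points passed the threshold. Left out are 5 members with a standard error of 5 or more or without counts in both groups (Hist1h2bk, Hist1h2bl, Hist1h2bn, Hist1h4k and Hist2h2aa2); the positive filled points at the left are the genes that rose after P6.

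The value of Hist2h3c1 cannot be read alone, because none of its 31-base stretches is its own: all occur in Gm20634, a processed transcript that spans it on the same strand. Gm20634 was at 0.858 and 1.66 CPM at P6 and at 26 and 40 at P28. At P2 the counts lay on Gm20634 (6.16 and 7.88 CPM against 0 and 0.032 for Hist2h3c1), and at P4 on Hist2h3c1 (7.95 and 7.77 against 0.238 and 0.642). Summed with the near copies Hist2h3c2 and Hist2h3b, the 4 genes read 0.558 and 0.377 CPM at E11, 11 and 10.3 at P6, and 29.9 and 46.7 at P28. The sum rose from P6 to P28 (log2 change 1.85, SE 0.36, adjusted p = 0.000395), whereas Hist2h3c1 counted alone fell. Part of this sum may be sequence of Gm20634 outside Hist2h3c1. The longer Gm20634 transcript has 2956 bases and the shorter 1825, against 1820 for Hist2h3c1. The counts of Gm20634 were not split between its transcripts, so the size of this part was not tested.

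Hist1h2bq and Hist1h2br, H2B genes of the Hist1 cluster, also traded counts between libraries. At P28 they read 1.35 and 0 CPM in replicate 1 and 0.058 and 1.22 in replicate 2, while their sums were 1.35 and 1.28. At P6 the sums were 0.572 and 0.246 CPM. Neither gene passed the threshold alone, and their sum did (log2 change from P6 to P28 1.68, SE 0.60, adjusted p = 0.03). With both sets of copies summed, 11 of 26 tested features rose and 2 fell.

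**Figure D5:**
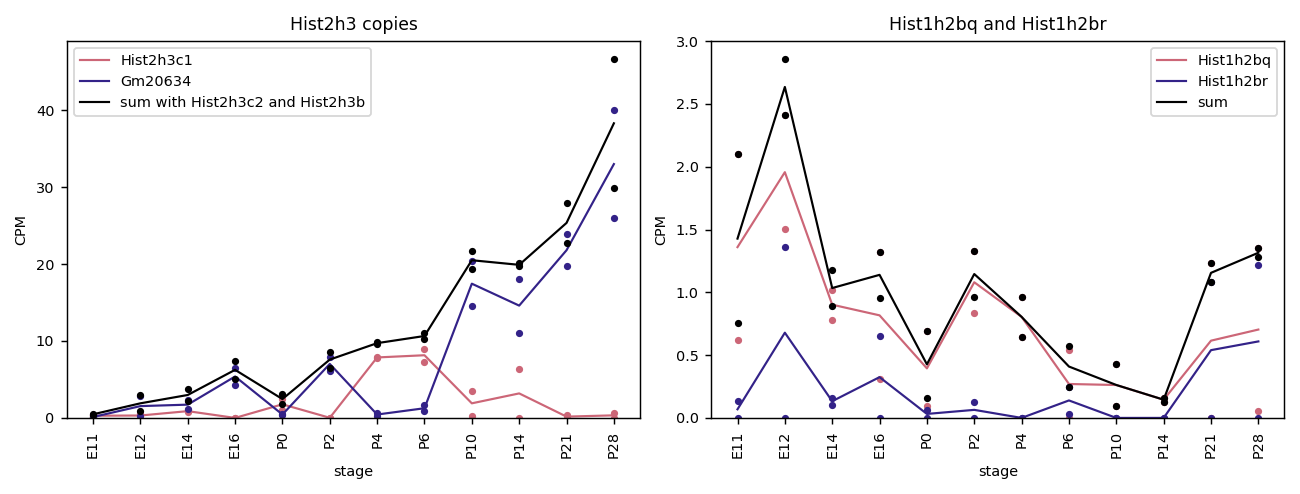
Level (CPM) by stage of Hist2h3c1, Gm20634 and the sum of the Hist2h3 copies at the left, and of Hist1h2bq, Hist1h2br and their sum at the right; dots are libraries and lines join the means of 2. Hist2h3c1 and Gm20634 alternate from stage to stage, while their sum is lowest at E11 and highest at P28.

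Compared with the dividing stages as a whole (the mean of E11, E12, E14, E16, P0 and P2), the mature stages (the mean of P14, P21 and P28) had 9 tested members higher and 6 lower, where 25.31% of all genes were higher and 18.41% lower. The median log2 difference was 0.21 for the members and 0.07 for all genes. Of the 9, 7 had also risen from P6 to P28, and these contrasts share the P28 libraries. Hist1h2bc was 7.5-fold higher, with mature libraries from 19.4 to 57.8 CPM (median 37.6) and dividing ones from 2.16 to 6.4 (median 4.85), which do not overlap (log2 difference 2.91, SE 0.09, adjusted p = 1.65e-15). Hist2h4 had the largest difference, with 1.26 to 12.17 CPM (median 4.41) against 0 to 0.741 (median 0.239), a log2 difference of 4.32 (SE 0.24, adjusted p = 1.66e-11). Hist2h3c2 differed by 3.79 on the log2 scale (SE 0.23, adjusted p = 4.03e-11) and Hist4h4 by 1.45 (SE 0.11, adjusted p = 1.01e-09), both without overlap. Of the 15 members called in this contrast, 6 had no overlap, and the share among all called genes was not computed. Among the 9, Hist1h1e, Hist1h2bg, Hist1h2be (1.45 to 18.4 against 0.476 to 3.23 CPM) and Hist1h1c (33.9 to 56.4 against 4.14 to 53) overlapped.

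The 2 of the 9 not called higher from P6 to P28, Hist3h2a and Hist1h1c, had reached much of their level before P6. Hist3h2a still rose after P6, but by less than 2-fold. It read 33.25 and 38.08 CPM at P6, and every library from P10 on lay above both. Its log2 change from P6 to P28 was 0.67 (SE 0.125, adjusted p = 0.0003). Hist3h2a (chr11:58954685-58956830, + strand), an H2A gene, lay at 6.35 to 30.5 CPM (median 21) in the dividing stages and at 40.8 to 65.8 (median 56.6) in the mature ones, without overlap (log2 difference 1.70, SE 0.06, adjusted p = 2.54e-14). It lies wholly inside Trim17 on the same strand, where transcript Trim17-002 starts at the same base, and 32.1% of its 31-base stretches are shared with that gene. Trim17 went from 1.84 and 1.94 CPM at P6 to 21.3 and 20.8 at P28, when Hist3h2a read 55.3 and 57.9, and its part in the counts of Hist3h2a was not tested.

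Of the 6 members lower in the mature stages, 2 were above 1 CPM. Hist1h4i lay at 2.61 to 9.81 CPM (median 6.82) in the dividing stages and at 0.901 to 2.92 (median 1.8) in the mature ones, with overlap (log2 difference -1.86, SE 0.14, adjusted p = 9.27e-10). Hist2h2be lay at 25.1 to 38.3 CPM (median 32.3) against 14.7 to 18, without overlap. Its log2 difference of -1.01 (SE 0.07, adjusted p = 3.07e-10) only just passed the fold threshold and missed it in 5 of 18 fits without 1 library (-0.96 without replicate 1 of E11). The remaining 4, Hist1h2bj (H2B), Hist1h4j (H4), Hist1h1d (H1) and Hist1h3c (H3), had means of 0.175 to 0.455 CPM in the dividing stages and of 0.0111 to 0.0852 in the mature ones, and their groups overlapped. Hist1h1d lost its call in most fits without 1 library, Hist1h2bj without replicate 1 of E12, Hist1h3c without replicate 2 of E12, and Hist1h4j without replicate 2 of P2 or of P14. With E11 and E12 left out, where red cell markers were highest, 10 members were higher, including all 9, and 5 lower.

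Earlier windows held fewer changes. From E11 to E16 the count was 4 higher and 1 lower (13.57% and 9.113% of all genes), with a median log2 change of -0.10 for the members and 0 for all genes. The E11 libraries were made from less RNA than those of E16, so stage and RNA input cannot be told apart in this window. Hist3h2a rose from 7.62 and 6.35 CPM to 27.5 and 25.9 (log2 change 1.93, SE 0.14, adjusted p = 3.64e-09). Its neighbour Hist3h2ba (chr11:58948920-58949533, + strand), an H2B gene of the same cluster, rose from 12.22 and 6.41 CPM to 20.1 and 18.2, a log2 change of 1.04 (SE 0.22, adjusted p = 0.000931) that missed the 2-fold threshold without replicate 2 of E11 (0.66) and without replicate 1 of E16 (0.97). From E16 to P6 its log2 change was -0.59 (adjusted p = 0.0347), with no overlap but under 2-fold. It read 11 and 14.45 CPM at P6 and 12.3 and 13.5 at P28. Hist2h3c2 rose by 3.62 on the log2 scale (SE 0.62, adjusted p = 0.000132) and Hist2h2ac by 2.65 (SE 0.72, adjusted p = 0.00577), from 0.0985 and 0.0343 CPM and from 0.0657 and 0.103 CPM.

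The single member lower at E16 than at E11, Hist1h2bl (H2B), had 3 and 14 counts at E11 and none at E16, at least 6.33-fold lower against a floor of 3 counts (adjusted p = 0.041). It was no longer called without replicate 2 of E11, without either replicate of E16, or with DESeq2, which leaves a count of 0 in place of 1. Markers of lens, red cells and mesenchyme were lower at E16 as well, for 7 of 8, 8 of 8 and 7 of 7 genes, and their part in the members' changes was not tested.

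From E16 to P6, 4 members rose and 3 fell (13.21% and 11.73% of all genes). The linker histone gene Hist1h1c (chr13:23738808-23740367, + strand) had the firmest change of these. It read 6.26 and 4.14 CPM at E16, 11.9 and 12.5 at P0, 52.9 and 53 at P2, and 46.6 and 50.6 at P6 (log2 change from E16 to P6 3.22, SE 0.19, adjusted p = 4.3e-10). Its step to the later level thus fell between P0 and P2, while dividing cell markers still summed to 2495 and 2428 CPM at P2. From P6 to P28 it passed no threshold, with 42.3 and 33.9 CPM at P28 (log2 change -0.35). Hist2h4 rose to P6 by 2.19 on the log2 scale (SE 0.53, adjusted p = 0.00255) and Hist2h2ac by 1.42 (SE 0.52, adjusted p = 0.0336), a call that Hist2h2ac lost when any 1 of the 4 libraries was left out (adjusted p from 0.0888 to 0.143). Hist2h3c1, with no count at E16, was the fourth, but the sum of the Hist2h3 copies did not pass (log2 change 0.77, SE 0.36, adjusted p = 0.0948).

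The members that fell from E16 to P6 were Hist1h4i, from 6.17 and 6.06 to 0.89 and 0.955 CPM (log2 change -2.72, SE 0.28, adjusted p = 3.37e-07), Hist1h1e and Hist1h2bj. Hist1h1e went from 0.271 and 0.309 CPM to 0.0318 and 0.0924 (log2 change -2.14, SE 0.74, adjusted p = 0.0253), a call lost without either replicate of E16 and without replicate 1 of P6 (adjusted p from 0.057 to 0.184). Hist1h2bj went from 0.271 and 0.711 CPM to 0.0318 and 0.0616 (adjusted p = 0.00549), a call lost without replicate 2 of E16 (adjusted p = 0.0784) and without replicate 1 of P6 (adjusted p = 0.0579). Without replicate 2 of E16, or without replicate 1 of P6, Hist1h4i alone remained.

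The lists of genes that work with histones or in DNA synthesis held no tested gene that rose from P6 to P28. Replacement histone mRNAs are mostly polyadenylated, and most can be made outside DNA synthesis. Of 11 such genes on the list, 7 fell from P6 to P28, with a median log2 change of -1.29. With edgeR 0 rose (0 at an unadjusted p under 0.05 and 0 with DESeq2). H1f0, a linker histone of differentiated cells, fell from 302 ± 23 to 51.8 ± 3.3 CPM, and H2afy2, which encodes a macroH2A, from 70.1 ± 4.6 to 16 ± 0.74. Of 20 histone chaperones, 6 fell and 0 rose (0 unadjusted, 0 with DESeq2), with a median of -0.50. Among them Nasp, an H3 and H4 chaperone, fell from 133 to 49.2 CPM and Npm1 from 312 to 113.

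Of 17 genes that process or degrade histone mRNA, 1 fell over this window, Lsm10 of the U7 particle that cuts histone pre-mRNA (log2 change -1.41), and 0 rose (2 at an unadjusted p under 0.05 and 0 with DESeq2), with a median of -0.25. Slbp itself had changed earlier, from 109 CPM at E16 to 40.6 at P6, and was at 30.8 at P28. Of 25 genes of the DNA synthesis phase, 24 fell from E16 to P6 and 14 from P6 to P28, with 0 higher in the later window (1 unadjusted, 0 with DESeq2), and all 25 were lower in the mature than in the dividing stages, with a median of -4.04. Rrm2, a subunit of ribonucleotide reductase, fell from 10.9 to 0.231 CPM between P6 and P28 while Hist1h2bc rose. For other cells, from P6 to P28 the pigment epithelium markers summed to 48.2 and 76.6 and then to 36.6 and 58.6 CPM, with 2 of 7 genes higher and 3 lower, and 4 of 7 microglia markers were lower and 1 higher; their part in the members' changes was not tested.

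Promoters of the members hold motifs of histone genes, some of which are known to go with their control in the cell cycle. RefSeq promoters (GRCm38.p6) were matched for 61 members. In the 200 bases before the start, on either strand, CCAAT was found in 82% of the 61, against 29.3% of all 32851 promoter windows. TATAAA was found in 42.6% against 9.96%, and ATTTGCAT, the octamer of H2B promoters, in 23% against 1.38%. Of 2 other motifs searched, TGACGTCA was found in 6.56% against 1.47% and CACGTG in 0% against 5.26%. A member counted if any of its starts held the motif, whereas the share of all is per window, which favours members with several starts. Hist1h2be has 2 annotated starts. Every deposited Hist1h2be transcript, coding or not, begins close to the distal start, and none begins near the proximal start. Windows of 150 bases are shown for both starts of Hist1h2be and for Hist1h2bg, with these motifs in capitals.
Hist1h2be distal start, chr13:23621095-23621244, − strand: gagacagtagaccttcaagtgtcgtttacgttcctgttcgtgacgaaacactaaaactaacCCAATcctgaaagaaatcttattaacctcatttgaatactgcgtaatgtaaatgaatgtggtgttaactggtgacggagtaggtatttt
Hist1h2be proximal start, chr13:23585971-23586120, − strand: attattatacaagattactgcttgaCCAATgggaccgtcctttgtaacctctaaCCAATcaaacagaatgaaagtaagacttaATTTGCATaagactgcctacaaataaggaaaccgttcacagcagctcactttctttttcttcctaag
Hist1h2bg, chr13:23571250-23571399, + strand: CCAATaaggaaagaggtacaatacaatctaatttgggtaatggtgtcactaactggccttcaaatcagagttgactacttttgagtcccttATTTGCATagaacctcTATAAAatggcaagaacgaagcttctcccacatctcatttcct
The proximal start of Hist1h2be and the start of Hist1h2bg both hold the octamer and CCAAT, and the distal start of Hist1h2be holds CCAAT without the octamer.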

How the data were processed

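The submitters' processing notes name kallisto (0.42.4), edgeR (3.13.9) and the build GRCm38.p5 but not which step each served. The authors deposited expected counts (estimated counts) per transcript and per gene from directional polyA libraries, per the labels. The step from transcripts to genes is not stated in the labels or notes used here; an estimate that divides reads between near-identical genes can move counts from one to the other. The authors' deposited normalized signal (CPM) was used only to compare levels. The deposited log2 changes and p-values of the authors were not used.

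Gene counts were rounded and fitted in R 4.3.3 with edgeR 4.0.16 (quasi-likelihood test, filterByExpr at 10 counts, TMM, 1 coefficient per stage, 24 libraries, 12 residual degrees of freedom). Benjamini-Hochberg adjustment ran over all 21858 genes tested. The standard error is the absolute log2 change over the square root of F. The model was also run on counts simulated from its own fit to these libraries. That run says nothing of sequence shared between members, and no result here rests on it. The overall test of 12 stages passed 23 of the 28 members and 77.28% of all genes.

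The members and lists were chosen with earlier results of these data known. Named are members higher in either late contrast, the 12 with the highest mean CPM, and falls above 2 CPM; other low members were named after their values were seen. Of other lists, the 2 largest falls above 5 CPM at P6 were named; other list genes were chosen after their values were seen. H3f3c, not protein-coding in the table, was left out. Replicate libraries were not identical. DESeq2 1.42.0 and other settings were alternatives. 1 gene of the retina marker list is not reported here and was left out of its sum.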

Additional observations from a re-analysis of the deposited data

How the results depend on the processing

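No named member with a value of its own changed sign past a threshold under another setting. Of these values 1614 kept their side of it, 35 lost it, 15 gained it and 2 levels moved. The 1614 include levels, and changes that did not pass the threshold in the main fit. Hist2h3c1, Hist2h3c2 and Hist1h2bq have no value of their own in the fit with summed copies. In that fit the Hist2h3 sum rose from P6 to P28, where Hist2h3c1 alone had fallen. The 10 rises from P6 to P28 ranged from 6 to 12 over 15 alternatives, with 6 to 10 of them shared. Without a count filter, 2 members fell from E11 to E16, 5 from E16 to P6, 11 were lower in the mature stages and 35 passed the overall test. With 1 CPM in 4 libraries required, 13 members were tested, of which 0 fell from E11 to E16, 1 from E16 to P6, 6 rose from P6 to P28, 1 was lower in the mature stages and 12 passed overall. The single fall from E11 to E16 became 0 with the compared stages alone and with DESeq2, and 2 without a fold threshold (edgeR, main: 3 at an unadjusted p under 0.05). A test against a 2-fold change gave 0 falls from E11 to E16, 0 from P6 to P28 and 3 in the mature stages. With a replicate block the falls from E11 to E16 were 0, Hist1h2bg lost its rise (adjusted p = 0.0569), Hist2h2aa2 gained one, and 10 members rose after P6, 9 of them shared; replicate numbers did not pair the libraries (same-number correlations of -0.195 to 0.3 over 66 stage pairs, 9 above 0.1). Leaving out 1 library at a time gave 0 to 1 falls from E11 to E16, 3 rises and 1 to 3 falls from E16 to P6, 8 to 10 rises and 1 to 3 falls from P6 to P28, and 4 to 8 members lower in the mature stages; the lone library left is then assumed to vary like the other stages. Library size alone moved the median of all genes from E11 to E16 to 0.14 and left 8 rises after P6, without Hist1h4i (log2 change 0.98) and Hist1h2bg (adjusted p = 0.0601). The alternatives with summed copies, without E11 and E12, and with P21 in place of P28 (12 rises) were chosen after seeing the data. The cause of these shifts was not tested, beyond the number of members each filter admits.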
